A study of Anas platyrhynchos with 16 samples.

Results

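The genes of the thyroid axis and of thyroid hormone handling described here were TRH, TRHR, TSHB, DIO2, DIO3, SLCO1C1, THRB and TTR, 8 of the 24263 genes in the expression table. They were chosen by name, from a set of 9 of which 7 were found by symbol. SLCO1C1 was listed as LOC101800306 and was named through its gene ID (101800306), and THRA was not analysed here. The thyroid axis runs from the hypothalamus, where thyrotropin-releasing hormone is made, to the pituitary, where thyrotrophs release thyrotropin, and from there to the thyroid gland. Thyroid hormone is then carried into cells by transporters, activated or inactivated by deiodinases, and read by nuclear receptors. In seasonally breeding birds, as worked out in Japanese quail, thyrotropin made in the pars tuberalis of the pituitary on long days acts on cells lining the third ventricle, where it changes the deiodinases and so the local supply of active hormone.

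RNA was sequenced from the pituitary and the hypothalamus of 113-day-old ducks (Anas platyrhynchos) of the Shanma strain. Caged ducks (groups C_P and C_H) had been moved on day 110, 3 days earlier, into 3 cages of 100 × 45 × 50 cm that held 15 birds, and received 16 h of light a day. Floor-water ducks (groups FW_P and FW_H), also 15 birds, were kept on in the floor-water system under natural light, so housing and lighting differed together and cannot be told apart. All groups had the same strain, age and commercial feed, and the labels name no mutation or drug. Each of the 4 groups had 4 libraries, with 38853215 to 67175356 counts a library. Whether the 4 libraries of a group came from 4 birds, and which cage a bird shared, is not given, so a p-value here reflects library-to-library spread alone, part of which could be technical.

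Levels below are FPKM, fragment counts divided by gene length and sequencing depth, which can be compared between genes, and are given for libraries 1 to 4 of a group in that order. Differences are log2 fold changes ± SE from the quasi-likelihood test of edgeR on counts, with p-values adjusted over all genes tested by the Benjamini-Hochberg method and called under 0.05. As these are bulk tissues, fewer cells of a type and less RNA per cell cannot be told apart.

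The tissues carried their defining transcripts. Over 12 pituitary endocrine markers the summed level was 188400 to 255200 FPKM in caged and 167500 to 247100 FPKM in floor-water pituitary libraries, against 1244 to 40470 FPKM in caged and 1546 to 4073 FPKM in floor-water hypothalamus libraries. Over 8 neuron markers it was 152.7 to 278.1 FPKM in caged and 140.6 to 297.2 FPKM in floor-water pituitary, against 1839 to 2548 FPKM in caged and 2502 to 2613 FPKM in floor-water hypothalamus. Among the endocrine markers SCG2 ran the other way, at 591.6 to 1071 FPKM in hypothalamus and 233.3 to 564.5 FPKM in pituitary libraries. In caged hypothalamus library 2, SCG2 (693.8 FPKM) and CHGA (485.0 FPKM) made up most of the sum of 1244 FPKM. Transcripts of the endocrine markers were uneven between hypothalamus libraries. The median endocrine marker stood at 4.88%, 0.104%, 6.37% and 21.6% of its mean pituitary level in the caged libraries, and at 1.46%, 0.0606%, 0.315% and 0.404% in the floor-water libraries. Caged hypothalamus library 4 was the highest of the 8. In the other direction the median neuron marker stood at 3.15%, 7.00%, 3.59% and 3.23% of its mean hypothalamus level in caged pituitary, and at 3.35%, 11.02%, 2.99% and 8.28% in floor-water pituitary.

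Between housing systems, no thyroid axis gene passed the threshold in either tissue. In the hypothalamus all 8 fold changes were above 0 (median 1.11), whereas 7977 of all 15736 genes tested were above 0 (median 0.004). The 8 fold changes share the same libraries and are not independent, and the genes were chosen with earlier results known. Without caged library 4, 7 were above 0 and 1 below (median 0.77). With single libraries left out, the median ran from 0.616 (without caged library 3) to 2.014 (without floor-water library 1). The called count was 0 of 8 genes in edgeR and 0 of 15736 genes overall (0.0%), and an unadjusted p under 0.05 was reached by 4 of the 8 and by 1463 of all genes (9.3%). DESeq2 called 1 of the 8, SLCO1C1, and 243 genes (1.22%), and limma on log2(FPKM + 1) called none of either. A q-value under 0.05 stood beside 2 of the 8, SLCO1C1 and TTR, in the authors' deposited table, beside 0.618% of its genes. That table marks 4 of the 8 as significant in the hypothalamus, these 2 with DIO3 and TRHR, by a rule that is not stated. Every caged library lay above every floor-water library for 1 of the 8, SLCO1C1, and below for 0, beside 4.4% and 1.35% of all genes (5.74% either way). In the pituitary 2 of the 8 lay above 0 and 6 below (median -0.13, against -0.007 over 15582 genes). None of the 8 reached even an unadjusted p under 0.05 there, against 670 of all genes (4.3%); 0 genes were called by edgeR (0.0%), 51 by DESeq2 (0.263%) and 0 by limma. The authors' deposited table had 0 of the 8 there and 0.157% of its genes. None of the 8 separated the housing groups in the pituitary, where 0.558% of all genes lay wholly above and 1.78% wholly below (2.34% either way).

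Between tissues, calls were common among the 8 genes and also among all genes. In floor-water ducks 6 of the 8 genes were called higher in the pituitary and 0 lower, beside 56.3% of 15878 genes called in all, 28.5% higher and 27.8% lower. In caged ducks 3 were called higher and 2 lower, beside 54.1% of 15854 genes, 27.3% higher and 26.8% lower. An unadjusted p under 0.05 was reached by 6 of the 8 in floor-water and 7 in caged ducks, beside 61.1% and 59.6% of all genes, and DESeq2 called 6 of the 8 in each, beside 48.6% and 47.0%. Every pituitary library lay above every hypothalamus library for 5 of the 8 genes in floor-water ducks and below for 0, beside 22.3% and 31.6% of all genes (53.8% either way). In caged ducks it lay above for 2 and below for 1, beside 16.9% and 35.3% (52.2%).

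The all-gene median of these tissue differences was 0.071 in floor-water and 0.065 in caged ducks, and it moved to -0.15 and -0.28 when libraries were scaled by their totals only. The calls then split into 3515 higher and 4949 lower in floor-water and 2709 higher and 5551 lower in caged ducks, in place of 4522 and 4413 and of 4323 and 4248. The counts of the 8 genes called each way were the same under that scaling.

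**Figure D1:**
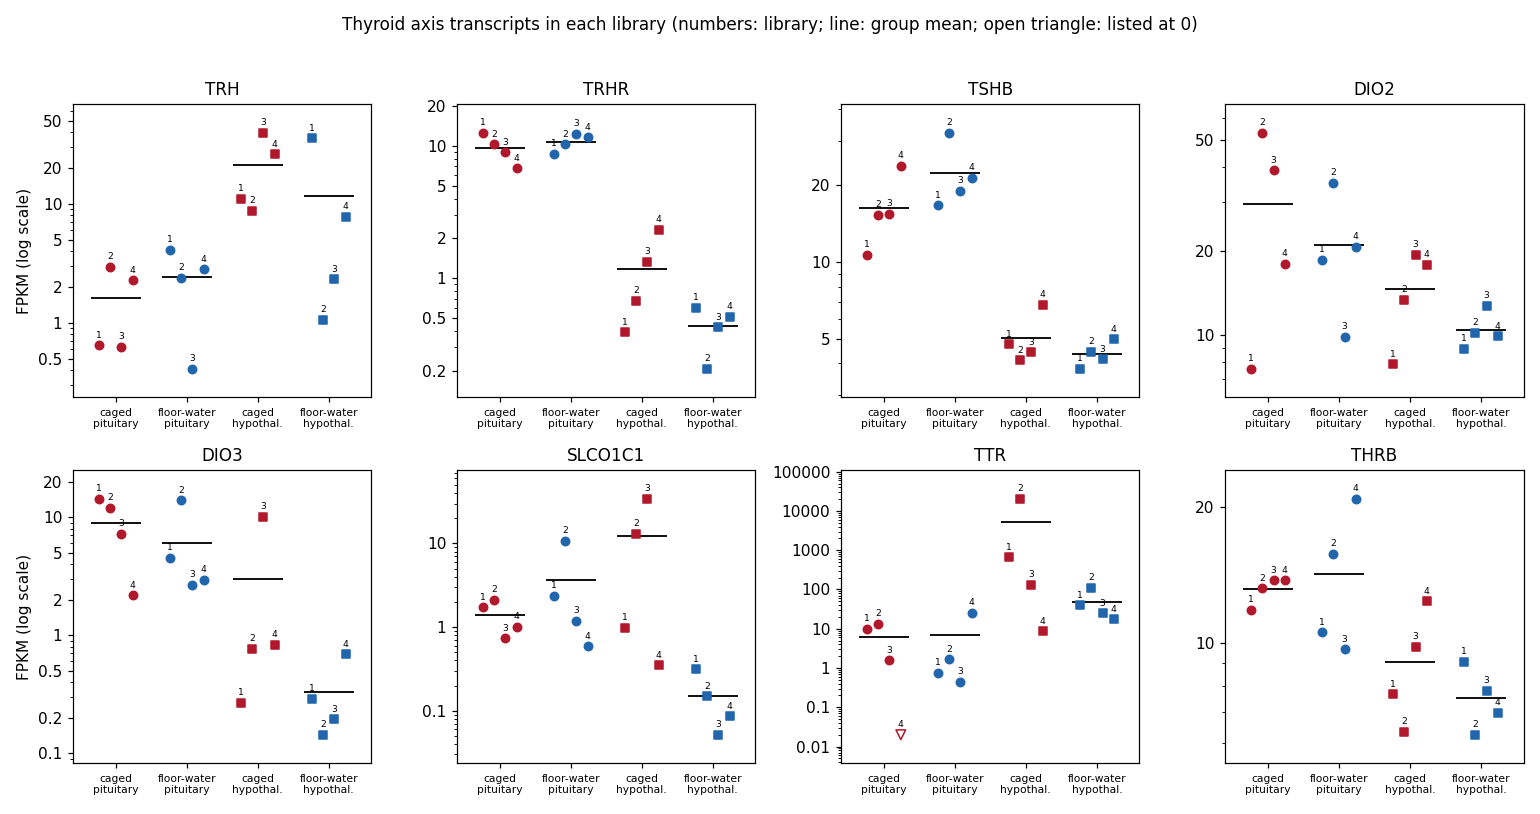
FPKM of the 8 thyroid axis genes in every library, on log axes, for caged pituitary, floor-water pituitary, caged hypothalamus and floor-water hypothalamus (n = 4 each); points carry the library number, lines are group means, and the open triangle is a library listed at 0. TRHR and TSHB separate the tissues without overlap, while SLCO1C1, DIO3 and TTR each have 1 or 2 caged hypothalamus libraries far above the other hypothalamus libraries.

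TRH (gene 101793564), the precursor of the releasing hormone, was the ligand of the set and was mainly a hypothalamus transcript. In pituitary it stood at 0.646, 2.97, 0.625 and 2.28 FPKM when caged and at 4.09, 2.38, 0.411 and 2.82 FPKM in floor-water ducks. In hypothalamus it stood at 11.1, 8.76, 39.6 and 26.1 FPKM when caged and at 35.6, 1.06, 2.33 and 7.78 FPKM in floor-water ducks. The housing groups overlapped in both tissues, and among hypothalamus libraries the second highest value was in floor-water library 1.

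TRH fell in the pituitary relative to the hypothalamus in caged ducks (log2 fold change -3.36 ± 0.68, adjusted p = 0.00292, edgeR), where every pituitary library lay below every hypothalamus library. In floor-water ducks the same difference was -2.10 ± 1.01 and was not called (edgeR adjusted p = 0.105). It was -0.47 without floor-water hypothalamus library 1 and -2.48 without library 2, where it was called (edgeR adjusted p = 0.0471; range over all settings 0.0471 to 0.641). Between housing systems the hypothalamus fold change was 0.83 ± 0.94 (edgeR adjusted p = 0.848) and 2.46 without floor-water library 1. The TRH entry overlaps LOC113845071 on the opposite strand, which averaged 0.729 FPKM in pituitary and 1.23 FPKM in hypothalamus. Strand use in counting is not known, so reads of both cannot be told apart.

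TRHR (gene 101800830), the receptor through which the releasing hormone acts on thyrotrophs and other pituitary cells, was a pituitary transcript. It stood at 12.6, 10.3, 8.99 and 6.76 FPKM in caged and at 8.73, 10.3, 12.4 and 11.7 FPKM in floor-water pituitary. Hypothalamus libraries had 0.389, 0.675, 1.33 and 2.33 FPKM when caged and at 0.596, 0.207, 0.426 and 0.510 FPKM in floor-water ducks. Every pituitary library was above every hypothalamus library in both housing systems, and the housing groups overlapped in both tissues.

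TRHR rose in the pituitary relative to the hypothalamus by 4.88 ± 0.36 in floor-water ducks (adjusted p = 9.98e-06, edgeR) and by 3.37 ± 0.52 in caged ducks (adjusted p = 0.000738, edgeR). In the hypothalamus the housing fold change was 1.39 ± 0.54 (edgeR adjusted p = 0.49), and without caged library 4 it was 0.83. That library also held the most pituitary endocrine transcripts, and TRHR there was at 22.8% of its mean pituitary level beside 21.6% for the median endocrine marker. In caged library 2 TRHR stood at 6.61% beside 0.104% for the median endocrine marker. How far pituitary transcripts contribute to the TRHR level in hypothalamus libraries was not tested. A further entry described as TRHR-like, LOC101791646, reached at most 1.41 FPKM in any library.

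TSHB (gene 101804542) encodes the beta subunit that makes thyrotropin distinct from the other glycoprotein hormones. It stood at 10.7, 15.4, 15.4 and 23.9 FPKM in caged and at 16.7, 32.2, 19.1 and 21.4 FPKM in floor-water pituitary. In hypothalamus the values were close together, at 4.76, 4.12, 4.43 and 6.81 FPKM when caged and at 3.81, 4.44, 4.15 and 4.97 FPKM in floor-water ducks. Pituitary libraries were all above hypothalamus libraries, while the housing groups overlapped.

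TSHB rose in the pituitary relative to the hypothalamus by 2.56 ± 0.19 in floor-water ducks (adjusted p = 1.12e-05, edgeR) and by 2.04 ± 0.28 in caged ducks (adjusted p = 0.000363, edgeR). Housing fold changes were -0.37 ± 0.26 in the pituitary (edgeR adjusted p = 0.9996) and 0.16 ± 0.17 in the hypothalamus (edgeR adjusted p = 0.827), where the sign turned to -0.02 without caged library 4. The hypothalamus level of TSHB varied less than the pituitary markers. It was 24.6%, 21.3%, 22.9% and 35.2% of the mean pituitary level in caged libraries and 19.7%, 22.9%, 21.4% and 25.7% in floor-water libraries. CGA, the alpha subunit that pairs with TSHB, was at 2.60%, 0.0199%, 8.46% and 20.7% in caged and 1.08%, 0.0527%, 0.159% and 0.207% in floor-water libraries. Among caged libraries TSHB, CGA and the median endocrine marker were all highest in library 4 and lowest in library 2. Among floor-water libraries, library 1 was the lowest for TSHB but the highest for CGA and the median endocrine marker. The part of pituitary transcripts in the TSHB level was not tested.

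The TSHB entry itself is unusual. It spans 124398 bases and holds 16 transcripts, 13 of them noncoding, and the length behind its FPKM, 8310 bases, makes its level hard to set beside those of the other genes. It overlaps TSPAN2 on the opposite strand. TSPAN2, a tetraspanin of myelinating cells, averaged 1.03 FPKM in pituitary and 35.5 FPKM in hypothalamus. With strand use not known, the part of the hypothalamus TSHB level that is thyrotropin message was not tested.

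**Figure D2:**
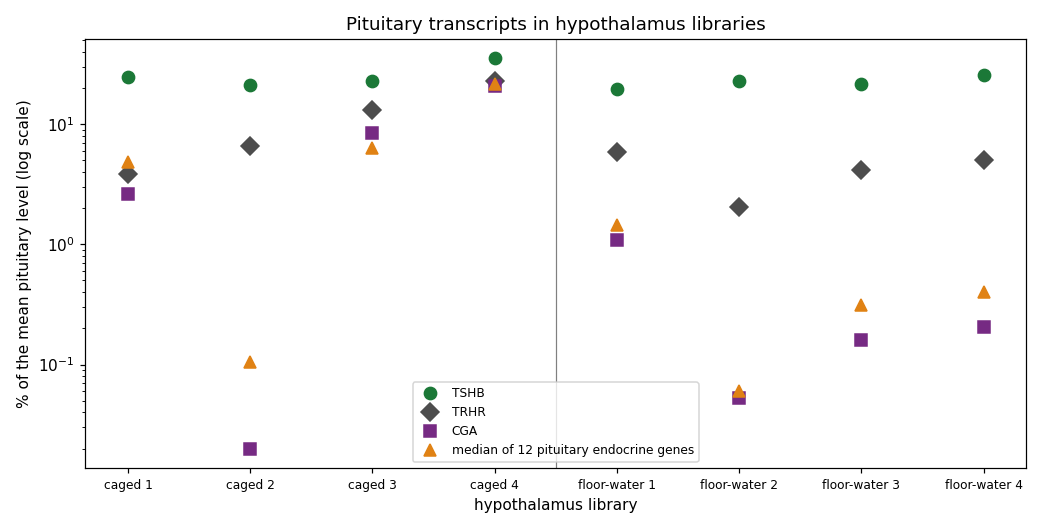
Level of TSHB, TRHR, CGA and the median of 12 pituitary endocrine markers in each hypothalamus library, as percent of the mean over the 8 pituitary libraries, on a log axis; caged libraries stand left of the line and floor-water libraries right. TSHB stays between 19.7% and 35.2% while CGA runs between 0.0199% and 20.7%.

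DIO2 (gene 101798494) encodes the deiodinase that converts thyroxine to the active hormone triiodothyronine inside cells. Its mean FPKM was above that of DIO3 in all 4 groups. In pituitary it stood at 7.59, 52.9, 38.9 and 18.0 FPKM when caged and at 18.6, 35.04, 9.87 and 20.7 FPKM in floor-water ducks. In hypothalamus it stood at 7.87, 13.4, 19.4 and 17.9 FPKM when caged and at 8.95, 10.2, 12.7 and 9.92 FPKM in floor-water ducks. The caged pituitary libraries were the most spread, with a highest value 6.97 times the lowest, and the groups overlapped in every comparison.

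DIO2 rose in the pituitary relative to the hypothalamus by 1.17 ± 0.26 in floor-water ducks (adjusted p = 0.00426, edgeR), a call that limma on log2(FPKM + 1) lost when genes of low level were kept in the adjustment. In caged ducks the difference was 1.32 ± 0.52 and missed the threshold (adjusted p = 0.0582, edgeR). It was called by DESeq2 (1.27, adjusted p = 0.023) and without caged pituitary library 1 (1.62, adjusted p = 0.0108, edgeR). With the title number as a block, a pairing of birds that is not known, it was 1.07 and was also called (adjusted p = 0.0462, edgeR). The adjusted p ranged over all settings from 0.0108 to 0.355. Housing fold changes were 0.57 ± 0.50 in the pituitary (edgeR adjusted p = 0.9996) and 0.43 ± 0.25 in the hypothalamus (edgeR adjusted p = 0.642).

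DIO3 (gene 101801522) encodes the deiodinase that inactivates thyroid hormone. In pituitary it stood at 14.3, 12.1, 7.22 and 2.18 FPKM when caged and at 4.53, 13.9, 2.66 and 2.95 FPKM in floor-water ducks. Its hypothalamus level was 0.268, 0.771, 10.1 and 0.824 FPKM when caged and at 0.290, 0.144, 0.194 and 0.691 FPKM in floor-water ducks. Caged hypothalamus library 3 was the only hypothalamus library above 1 FPKM, and the housing groups overlapped in both tissues.

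DIO3 rose in the pituitary relative to the hypothalamus in floor-water ducks (log2 fold change 4.28 ± 0.67, adjusted p = 0.000544, edgeR), without overlap. In caged ducks the difference was 1.95 ± 1.06 (adjusted p = 0.148, edgeR). Without caged hypothalamus library 3 it was 4.15 and was called (edgeR adjusted p = 0.00307; range over all settings 0.00307 to 0.282). The same library carried the housing difference in the hypothalamus, which was 3.06 ± 1.10 with it (edgeR adjusted p = 0.452) and 0.86 without it. In the authors' deposited table DIO3 had a fold of 9.04 in the hypothalamus with a q-value of 0.0876 and was marked significant. In the pituitary the housing fold change was 0.72 ± 0.60 (edgeR adjusted p = 0.9996).

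The ratio of DIO2 to DIO3 FPKM, a descriptive index of activation over inactivation at the transcript level, was 0.531, 4.40, 5.39 and 8.26 in caged and 4.11, 2.53, 3.72 and 7.01 in floor-water pituitary. It was 29.4, 17.3, 1.93 and 21.7 in caged and 30.9, 71.3, 65.6 and 14.4 in floor-water hypothalamus. The hypothalamus ratios were higher than every pituitary ratio of the same housing in floor-water ducks, and in caged ducks all but library 3 were. Two-sided exact permutation tests of the log2 ratio gave p = 0.0286 for the tissues in floor-water ducks, the smallest that 4 against 4 libraries allow, and p = 0.2 in caged ducks. For housing the exact tests gave p = 0.886 in the pituitary and p = 0.171 in the hypothalamus. None of the 4 passed after Benjamini-Hochberg adjustment (adjusted p = 0.114 at the lowest, permutation test).

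SLCO1C1 encodes an organic anion transporter that carries thyroxine across the blood-brain barrier, the choroid plexus and the lining of the third ventricle, as known from mammals. It showed the smallest p of the 8 genes for housing in the hypothalamus. In pituitary it stood at 1.73, 2.12, 0.734 and 1.02 FPKM when caged and at 2.36, 10.7, 1.18 and 0.587 FPKM in floor-water ducks. In hypothalamus it stood at 0.978, 13.2, 34.3 and 0.348 FPKM when caged and at 0.312, 0.148, 0.0517 and 0.0859 FPKM in floor-water ducks. Every caged hypothalamus library was above every floor-water one, although caged library 4 and floor-water library 1 were close; the same held for 4.4% of all genes. The caged libraries themselves differed 98.5-fold.

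The hypothalamus fold change of SLCO1C1 was 6.31 ± 1.43 (unadjusted p = 0.00161, adjusted p = 0.361, edgeR), the gene with rank 63 by p. DESeq2 gave 6.25 with an adjusted p of 0.000459 (range over all settings 0.000459 to 0.779). In the authors' deposited table SLCO1C1 ranked 1 by p in the hypothalamus, with a fold of 81.6 and a q-value of 8.3e-05. Without caged library 3 the edgeR fold change was 5.01, and without caged libraries 2 and 3, an alternative chosen after the data were seen, it was 2.10 (adjusted p = 0.779, edgeR). In the pituitary the housing fold change was -1.22 ± 0.74 (edgeR adjusted p = 0.9996), and the sign turned to 0.06 without floor-water library 2.

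Between tissues SLCO1C1 rose in the pituitary relative to the hypothalamus in floor-water ducks by 4.72 ± 0.95 (adjusted p = 0.00228, edgeR). In caged ducks the difference had the other sign, -2.75 ± 1.17, and missed the threshold (adjusted p = 0.0743, edgeR); it was called without caged hypothalamus library 1 (-3.14) or library 4 (-3.16), and by DESeq2 (-2.81). It was -1.47 without caged hypothalamus library 3 and -0.97 with the title number as a block, uncalled in both.

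The test of the difference itself, housing effect in pituitary minus that in hypothalamus over all 16 libraries, gave -7.50 ± 1.66 (adjusted p = 0.281, edgeR) and an adjusted p of 0.00104 in DESeq2 (range over all settings 0.00104 to 0.789). In edgeR 0 of 17010 genes were called for that difference (0.0%), 1226 had an unadjusted p under 0.05 (7.21%), and DESeq2 called 142 (0.685%). Of the 8 genes, 3 had an unadjusted p under 0.05, and the other 7 had fold changes between -6.90 (TTR) and 0.14 (DIO2) and no call in edgeR.

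Other entries carry the same protein description. LOC101799801, described as SLCO1C1 at another place in the genome, stood at 1.34, 1.60, 2.11 and 0.998 FPKM in caged and 0.578, 0.480, 0.675 and 0.398 FPKM in floor-water hypothalamus, without overlap. Its hypothalamus fold change was 1.45 ± 0.29 (edgeR adjusted p = 0.306), and DESeq2 called it. In the pituitary the sign was the other way, with 0.388, 0.391, 0.595 and 0.507 FPKM when caged and 1.87, 1.60, 0.580 and 1.31 FPKM in floor-water ducks (-1.40 ± 0.36, edgeR adjusted p = 0.972). The difference between those housing effects was -2.84 ± 0.46 (edgeR adjusted p = 0.139). LOC101800257, also so described, did not exceed 0.190 FPKM. Reads shared between such copies could be split differently by other counting rules, so the copy behind a level is uncertain.

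**Figure D3:**
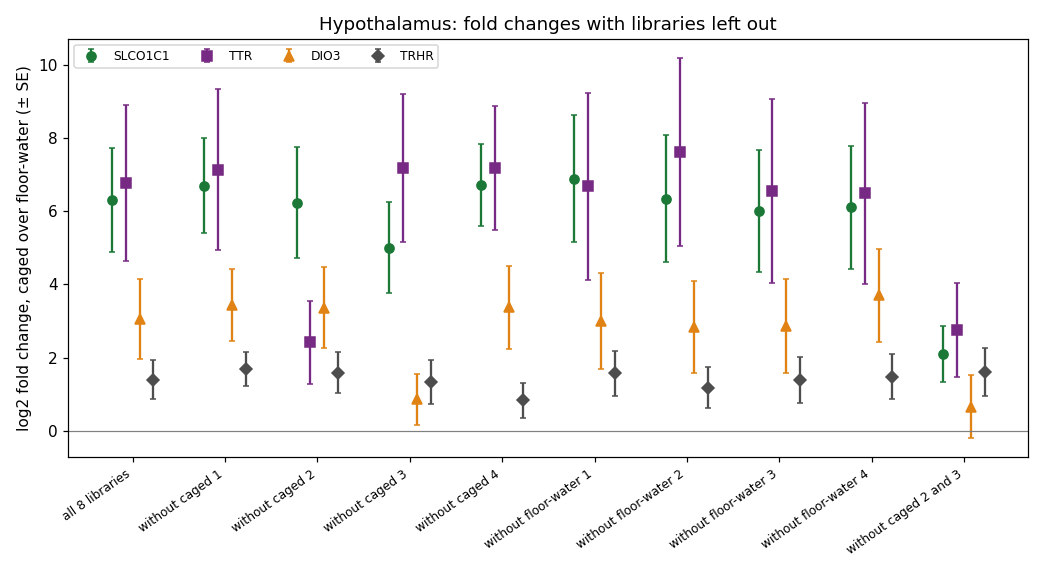
Log2 fold change of caged over floor-water hypothalamus (± SE, edgeR) for SLCO1C1, TTR, DIO3 and TRHR with all 8 libraries, with each library left out, and without caged libraries 2 and 3. SLCO1C1 drops to 2.10 without both, TTR to 2.41 without caged library 2, DIO3 to 0.86 without caged library 3 and TRHR to 0.83 without caged library 4.

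TTR (gene 101799533), transthyretin, is a thyroid hormone carrier of blood and cerebrospinal fluid and in the brain is made by the choroid plexus. In pituitary it stood at 9.998, 13.4 and 1.57 FPKM in caged libraries 1 to 3, with 0 counts in library 4, and at 0.768, 1.65, 0.453 and 25.6 FPKM in floor-water ducks. The hypothalamus held 662.3, 20520, 130.2 and 8.61 FPKM when caged and 39.2, 109.8, 24.7 and 17.3 FPKM in floor-water ducks. A single library, caged hypothalamus library 2, was far above all others, while caged library 4 was the lowest of the 8, so the housing groups overlapped.

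The hypothalamus fold change of TTR was 6.77 ± 2.12 (adjusted p = 0.414, edgeR) and 2.41 without caged library 2, and DESeq2 gave no adjusted p. The authors' deposited table gives a fold of 112 and a q-value of 0.00307. TTR fell in the pituitary relative to the hypothalamus in caged ducks (-9.43 ± 2.69, adjusted p = 0.0156, edgeR), by 5.08 without caged hypothalamus library 2. In floor-water ducks the difference was -2.54 ± 1.23 (adjusted p = 0.106, edgeR). It was called by limma with each pseudocount (-3.38 with 1 and -4.10 with 0.1) and with the title number as a block (-4.51). Without floor-water pituitary library 4 it was -5.48 and was called (edgeR adjusted p = 0.00077; range over all settings 0.00077 to 0.283). In the pituitary the housing fold change was -0.14 ± 1.48 (edgeR adjusted p = 0.9996). A further entry described as transthyretin, LOC101799714, reached 8.61 FPKM in floor-water hypothalamus library 2 and at most 0.958 FPKM elsewhere.

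The summed level of choroid plexus markers was also highest in caged library 2, through some of them. Over 10 of 12 listed markers found in the table, it was 97.2, 136.6, 85.6 and 85.5 FPKM in caged and 100.2, 51.0, 50.3 and 101.4 FPKM in floor-water hypothalamus, and 0 markers were without counts in any of them. Of the 10, 4 were highest of all hypothalamus libraries in caged library 2 and 6 were highest in another, and IGFBP2 alone gave 90.04 FPKM of the sum there. KCNJ13, a potassium channel of choroid epithelium and one of the 4, stood at 0.0459, 0.622, 0.0514 and 0.0380 FPKM in caged and 0.0380, 0.0290, 0.0365 and 0.00664 FPKM in floor-water hypothalamus. As mean log2(FPKM + 1), the list was at 2.17 in caged and 1.78 in floor-water hypothalamus (two-sided exact permutation p = 0.0286, the smallest possible; adjusted p = 0.229 over 16 tests of 8 lists in 2 tissues).

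Markers of other tissues around the ventricle and brain surface differed at least as much. Meninges and fibroblast markers were at 2.76 in caged and 2.13 in floor-water hypothalamus (exact permutation p = 0.0286, adjusted p = 0.229), and ependyma markers at 2.32 in caged and 1.56 in floor-water hypothalamus (exact permutation p = 0.0571, adjusted p = 0.305). Of 8 ependyma markers, 5 were highest in caged library 2, and of 6 meninges and fibroblast markers 3 were highest in caged library 3. The part of choroid plexus, ependyma or meninges in the TTR and SLCO1C1 levels was not tested. Caged library 3, the highest in SLCO1C1, had a mean log2 of 2.05 for the choroid plexus list beside 2.56 in library 2.

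THRB (gene 113839582), thyroid hormone receptor beta, was the receptor measured. In log2(FPKM + 1) over all 16 libraries, it was the least spread of the 8 genes about its own mean (root mean square 0.438). By highest over lowest FPKM within a group, it was the most even only in caged pituitary (1.16-fold). It stood at 11.8, 13.2, 13.7 and 13.7 FPKM in caged and 10.5, 15.7, 9.66 and 20.8 FPKM in floor-water pituitary. In hypothalamus it stood at 7.68, 6.34, 9.80 and 12.3 FPKM when caged and at 9.07, 6.25, 7.83 and 6.99 FPKM in floor-water ducks. Floor-water pituitary libraries were all above floor-water hypothalamus libraries, and caged tissues overlapped only through caged hypothalamus library 4.

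THRB rose in the pituitary relative to the hypothalamus by 1.12 ± 0.23 in floor-water ducks (adjusted p = 0.00278, edgeR) and by 0.88 ± 0.20 in caged ducks (adjusted p = 0.00505, edgeR). Housing fold changes were -0.04 ± 0.22 in the pituitary (edgeR adjusted p = 0.9996) and 0.21 ± 0.20 in the hypothalamus (edgeR adjusted p = 0.794). Of 2 further entries described as thyroid hormone receptor beta, LOC113842690 reached at most 0.0929 FPKM and LOC101792479 was listed at 0 in every library.

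**Figure D4:**
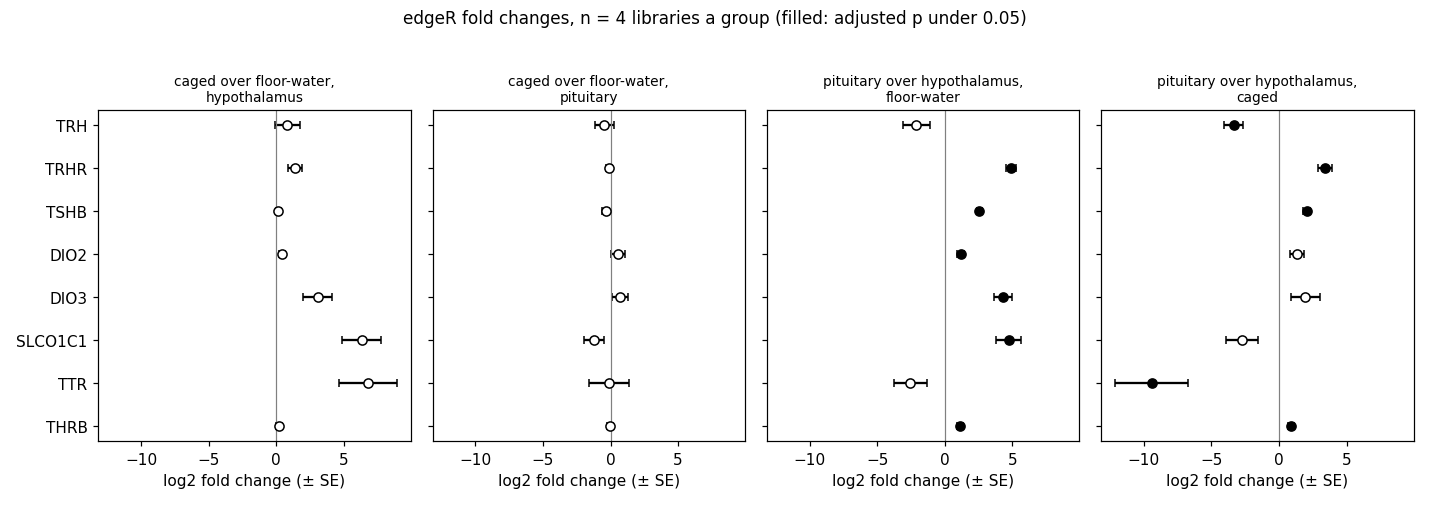
Log2 fold changes ± SE from edgeR for the 8 genes in 4 comparisons (n = 4 libraries a group); filled points have an adjusted p under 0.05. No housing comparison holds a filled point, 6 genes are filled to the right for floor-water ducks, and 3 to the right and 2 to the left for caged ducks.

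By group mean, TRHR, TSHB and THRB ran in the order floor-water pituitary, caged pituitary, caged hypothalamus, floor-water hypothalamus. For TRHR and TSHB only the step between the tissues was free of overlap, and for THRB every neighbour overlapped. DIO2 and DIO3 ran from caged pituitary over floor-water pituitary and caged hypothalamus to floor-water hypothalamus, each neighbour overlapping the next. TRH and TTR ran from caged hypothalamus over floor-water hypothalamus and floor-water pituitary to caged pituitary, again with every neighbour overlapping. SLCO1C1 was highest in caged hypothalamus, followed by floor-water and caged pituitary, each overlapping the next, with floor-water hypothalamus apart below them.

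The high hypothalamus values were held by few libraries. Caged library 3 was the highest of the 8 hypothalamus libraries for TRH, DIO2, DIO3 and SLCO1C1, caged library 4 for TRHR, TSHB and THRB, and caged library 2 for TTR. Over 11714 genes, these libraries were the highest for 16.1%, 20.8% and 9.28% of genes. No floor-water library was the highest for any of the 8. Of the same 11714 genes, each floor-water hypothalamus library was the highest for between 9.48% and 13.3%.

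Of the 51 other pathway genes found in the table, 11 (21.6%) were highest in caged hypothalamus library 3, as many as in caged library 4, beside the 16.1% and 20.8% of all genes above. CRYM and TSHR were among the 11 and are shown because their values there stood far from the rest. CRYM, a cytosolic protein that binds triiodothyronine, stood at 25.6, 53.5, 295.2 and 32.6 FPKM in caged and 34.2, 15.2, 19.5 and 23.8 FPKM in floor-water hypothalamus (fold change 2.07 ± 0.73, edgeR adjusted p = 0.45). TSHR, the thyrotropin receptor, stood at 0.250, 0.545, 2.24 and 0.226 FPKM when caged and 0.534, 0.294, 0.487 and 0.173 FPKM in floor-water hypothalamus. Outside the pathway, AGRP, the agouti-related peptide of arcuate nucleus neurons, found by its likeness to SLCO1C1, was at 11.1 FPKM in that library and between 0 as listed and 0.648 FPKM in the other 7. RAX, a homeobox gene of the tanycytes that line the third ventricle, named after its values were seen, was at 4.23 FPKM there and between 0.0693 and 0.428 FPKM in the other 7. RAX is 1 of 9 astrocyte and tanycyte markers in the table, of which 5 were highest in caged library 3 and 4 in other libraries, GFAP among these. As mean log2(FPKM + 1), that list was at 5.67, 5.63, 6.22 and 5.16 in caged and 5.57, 5.29, 5.38 and 5.44 in floor-water hypothalamus.

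Floor-water pituitary library 2 was high in the same genes. It was the highest pituitary library for SLCO1C1 (10.7 FPKM), CRYM (112.6 FPKM), TSHR (0.553 FPKM), AGRP (12.3 FPKM) and RAX (3.78 FPKM), and second for DIO3 (13.9 FPKM). In the other 7 pituitary libraries CRYM was between 7.54 and 25.9 FPKM and AGRP between 0.0723 and 0.543 FPKM. AGRP was found by likeness to SLCO1C1 over all 16 libraries, this one included, and RAX was named after its values were seen. Agreement between the genes here is thus partly built in by their choice. The share of all genes highest in this library was not computed. The median neuron marker in this library was at 11.02% of its mean hypothalamus level, the highest of the 8 pituitary libraries. As mean log2(FPKM + 1), it was also the highest of them for neuron (3.872) and astrocyte and tanycyte markers (3.795). For oligodendrocyte markers it was at 4.351, below caged pituitary library 2 (5.192) and floor-water pituitary library 4 (5.089). The part of hypothalamus tissue in floor-water pituitary library 2 was not tested. Nor was the place of dissection within the hypothalamus in caged hypothalamus library 3.

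**Figure D5:**
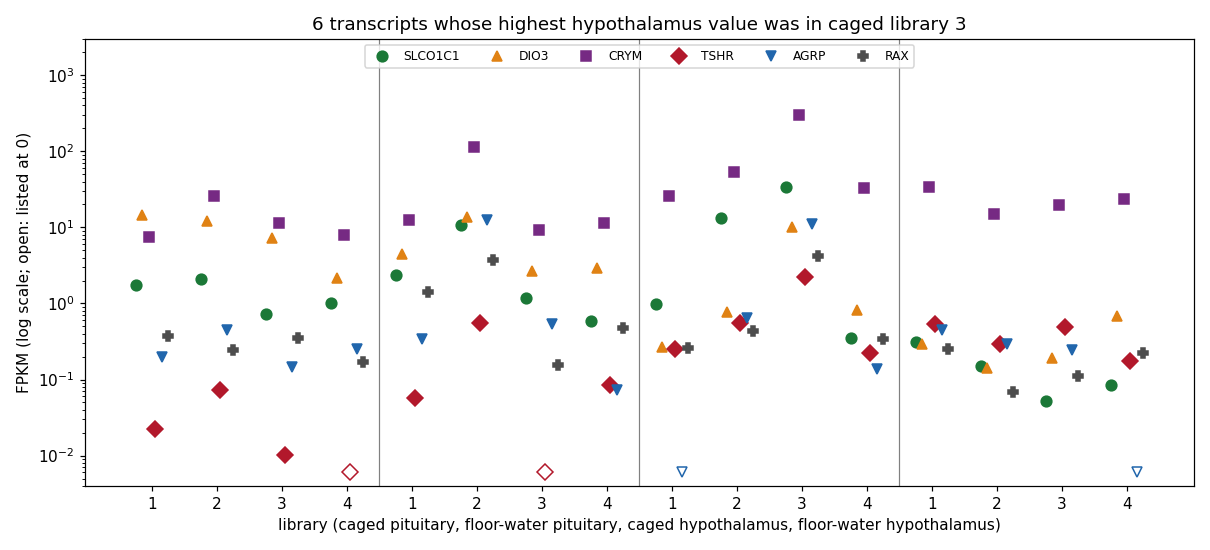
FPKM of SLCO1C1, DIO3, CRYM, TSHR, AGRP and RAX in the 16 libraries, on a log axis, in the order caged pituitary, floor-water pituitary, caged hypothalamus and floor-water hypothalamus; open symbols are listed at 0. The genes are shown for their values in caged hypothalamus library 3, so agreement between them is partly built in. All 6 have their highest hypothalamus value in caged library 3, and 5 of them, all but DIO3, their highest pituitary value in floor-water library 2.

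The wider pathway was read from 6 lists with 63 genes, 51 of them in the table. For housing, edgeR called 0 of 51 genes in the hypothalamus (26 above 0, median 0.00). An unadjusted p under 0.05 was reached by 10 of the 51, beside 9.3% of all genes, and DESeq2 called 1 of them, a thyrotroph factor, beside 1.22% of all genes. In the pituitary edgeR called 0 of 50 (19 above 0, median -0.06), 2 had an unadjusted p under 0.05, beside 4.3% of all genes, and DESeq2 called 0. Of 9 thyrotroph transcription factors, 8 lay above 0 in the hypothalamus, with a median of 1.32. Of the 9, 3 had an unadjusted p under 0.05, and some, POU1F1 and PITX1 among them, are also on the pituitary endocrine marker list, which was uneven between the hypothalamus libraries as given above. The part of pituitary transcripts in these fold changes was not tested.

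Some genes with the smallest p of the other lists had these fold changes. Of the hormone subunits and receptors, CGA had 4.36 ± 1.57 in the hypothalamus (edgeR adjusted p = 0.451) and 0.77 ± 0.26 in the pituitary (edgeR adjusted p = 0.9996), where it stood at 5790, 10340, 8163 and 5046 FPKM when caged and 5459, 3443, 4879 and 3820 FPKM in floor-water ducks. TRHDE, which degrades the releasing hormone, had -0.42 ± 0.21 in the hypothalamus. Among transporters, SLC16A10 had 0.80 ± 0.36 and SLCO3A1 -0.35 ± 0.11 in the hypothalamus, and SLCO3A1 had 0.53 ± 0.27 and SLCO2B1 -0.90 ± 0.38 in the pituitary. CRYM had -1.30 ± 0.76 in the pituitary, where it was 0.25 without floor-water library 2. Among receptor partners, RXRA had 0.59 ± 0.23 and the coactivator NCOA2 -0.44 ± 0.13 in the hypothalamus. Among response genes, HOMER1 had -0.35 ± 0.12 there and RELN -0.49 ± 0.24 in the pituitary. None of these passed the threshold (edgeR adjusted p between 0.3997 and 0.9996).

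Between tissues the lists moved in different directions. Of the 9 thyrotroph factors, 8 rose in the pituitary in floor-water ducks (median 3.88), beside 28.5% of all genes, and 7 in caged ducks (median 2.52), beside 27.3%, while TEF, a leucine zipper factor, fell in both (-1.08 ± 0.16 and -0.91 ± 0.22). POU1F1, the lineage factor of thyrotrophs, somatotrophs and lactotrophs, averaged 103.9 ± 23.7 FPKM in floor-water pituitary and 0.449 ± 0.548 FPKM in floor-water hypothalamus (SD, n = 4 each; 8.10 ± 1.06, edgeR adjusted p = 0.000179). LHX3, a LIM homeobox factor of the whole anterior lobe, had 8.24 ± 1.04 there. In caged ducks the largest was POU1F1 (4.56 ± 1.02).

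Of 8 hormone and processing genes, 1 rose and 3 fell in the pituitary in floor-water ducks, and 2 rose and 4 fell in caged ducks. With 4 and 6 of 8 called, these counts stand beside 56.3% and 54.1% of all genes. CGA rose by 7.90 ± 1.01 in floor-water ducks and by 4.31 ± 1.37 in caged ducks, where the call was lost with the title number as a block (adjusted p = 0.0512, edgeR) and without caged hypothalamus library 1 or 3 (range over all settings 4.39e-06 to 0.0674). PAM, the amidating enzyme that completes the releasing hormone, rose by 0.55 ± 0.13 in caged ducks, and this was not called with library totals only (0.20) or by limma (0.21). The convertase PCSK2 fell by 3.65 on the log2 scale in floor-water ducks, TRHDE fell by 3.38 in floor-water and 3.63 in caged ducks, and TSHR fell by 4.52 in caged ducks. The TSHR difference rests on 38 counts over the caged pituitary libraries and on a high caged hypothalamus library 3 (2.24 FPKM). Its call was lost by limma on log2(FPKM + 1) without a filter (-0.70, adjusted p = 0.0817).

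Of 11 transporters, 3 rose and 7 fell in floor-water ducks and 4 rose and 5 fell in caged ducks, beside the same 56.3% and 54.1% of all genes, about evenly split by direction. With the title number as a block 3 rose and 4 fell in caged ducks. SLC16A10, a transporter of aromatic amino acids and thyroid hormone, averaged 5.18 ± 0.77 FPKM in floor-water pituitary and 0.541 ± 0.108 FPKM in floor-water hypothalamus (SD, n = 4 each; fold change 3.47 ± 0.19), and rose by 2.88 ± 0.36 in caged ducks. ITGB3, a subunit of an integrin that binds thyroid hormone at the cell surface, rose by 2.92 and 2.44. SLCO1A2 (-5.69 ± 1.03 and -6.38 ± 1.27) and SLC10A1 (-3.97 ± 0.50 and -4.04 ± 0.36) fell in floor-water and caged ducks.

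Of 5 genes for handling inside the cell, 1 rose and 0 fell in floor-water ducks, and 2 rose and 1 fell in caged ducks (1 and 1 with the title number as a block), beside 56.3% and 54.1% of all genes called. EEFSEC, the selenocysteine elongation factor that deiodinase synthesis needs, rose by 0.96 ± 0.12 in floor-water and 0.97 ± 0.13 in caged ducks. In caged ducks SECISBP2 rose by 0.43 ± 0.16, a call lost with library totals only (0.09), in DESeq2 (0.37) and with the title number as a block (edgeR adjusted p = 0.0869). CRYM fell there by 2.60, and was not called without caged hypothalamus library 3 (-1.20) or without caged pituitary library 1, 3 or 4 (-2.43, -2.54 and -2.44).

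Of 11 receptor partners, 2 rose and 1 fell in each housing, beside 56.3% and 54.1% of all genes called. RXRA rose (2.01 and 1.28) and NCOA2 fell (-1.24 and -0.91) in floor-water and caged ducks. Of 7 response genes, 0 rose and 5 fell in each housing, beside 27.8% and 26.8% of all genes that fell. Among them were MBP (-5.90 and -6.19), which is also on the oligodendrocyte list, and NRGN (-2.19 and -1.86). The neuron markers were also low in the pituitary, as given above, and their part in these differences was not tested.

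The genes whose levels over the 16 libraries were most like each of the 8 were found by the root mean square difference of centred log2(FPKM + 1), among 10651 genes. TRHR was nearest to BID, P3H3 and MPZL3 (0.196 for BID, beside 1.39 for the spread of TRHR about its own mean), and TSHB to PROCR, BORCS6 and CTSH (0.218 for PROCR, beside 0.956). THRB was nearest to MCC, C24H1orf109 and SSBP2 (0.174, beside 0.438) and DIO2 to FGG, RASGEF1B and KIF22 (0.366, beside 0.772). TRH was nearest to UCN3, ECEL1 and DLX5 (0.772, beside 1.53). DIO3 to CA12, AVPR1A and C7H2orf66 (0.689, beside 1.36) and SLCO1C1 to ZP2, AGRP and TYRP1 (0.802, beside 1.43) had no closer match. TTR had no near neighbour, with UTS2B at 2.27 beside 3.58.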

How the data were processed

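RNA-seq libraries of 2 duck tissues under 2 housing systems were analysed, 4 libraries a group and 16 in all. Per the submitters' processing notes, DESeq2, StringTie 1.3.4d, HISAT2 and cutadapt were among the tools. What each did, the genome build, the annotation and the strand setting are not given in the sources used here. A deposited table holds raw counts per gene and, per the file headers, FPKM values for every library, and a gene without signal is listed at an FPKM of 0.0001 or lower. Separate tables deposited by the authors give, per comparison, a fold (ratio of mean FPKM), its log2 value, a p-value and a q-value, and their test is not stated. RNA was extracted with Trizol, and RNA integrity numbers were above 7.0 per the labels.

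Counts were fitted with edgeR 4.0.16 (quasi-likelihood test, TMM scaling, filterByExpr) in R 4.3.3, separately for each comparison, with Benjamini-Hochberg adjustment over all genes tested and a threshold of 0.05. The difference between the housing effects was an interaction term over all 16 libraries. Alternatives were DESeq2 1.42.0, median ratio scaling, library totals only, no filter on low counts, limma 3.58.1 on log2(FPKM + 1) and log2(FPKM + 0.1) with and without a mean FPKM filter of 0.5, the title number as a block, 1 fit of all libraries, and libraries left out. The fits were run on simulated counts with the same dispersion for every gene. That setting puts no library far from its group, so it cannot judge the genes here where single libraries stood apart. Of the 24263 genes, 17816 (73.4%) had an ID in the RefSeq gene table of assembly IASCAAS_PekinDuck_T2T, and 480 were renamed through it. That table was used for names only. The 8 marker lists held 76 genes, 64 of them in the table. Single values were compared by two-sided exact permutation tests over the 70 splits of 8 libraries.

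The genes and all lists were chosen with earlier results of these data known. Of a pathway list, called genes were named, or else the smallest p each way for housing, and for tissues the 2 largest fold changes each way. Title numbers were checked for pairing by correlating deviations from group means over 13477 genes. The correlations were 0.137, 0.127, 0.121 and 0.195 between caged tissues, all above 0.1, the rule used for calling them paired. Caged and floor-water pituitary libraries numbered 2, from different housing, reached 0.296. Libraries of different numbers were not correlated, so these values cannot show that both tissues came from the same bird. The labels do not say so either, and the block is an alternative only. No 2 libraries of a group agreed within sampling noise. Some results are not reported here.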

Additional observations from a re-analysis of the deposited data

Results flagged for a closer look

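A library far from the other 3 of its group was looked for in 120 groups of 4, and 17 were found. The cut-off would flag about 1 in 20 groups if values were normally spread and groups independent. FPKM values are skewed, some lie at the floor, and the groups share genes and libraries. Whether 17 is more than chance gives was therefore not tested. Among the thyroid axis genes these were DIO3 in caged hypothalamus library 3 (10.05 FPKM) and floor-water pituitary library 2 (13.88 FPKM), and TTR in caged hypothalamus library 2 (20520 FPKM) and floor-water pituitary library 4 (25.59 FPKM). SLCO1C1 is not among them. In caged hypothalamus 2 libraries were high together. In floor-water pituitary, library 2 (10.67 FPKM, the others 0.5874 to 2.358 FPKM) stood alone but did not reach the cut-off.

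Of the pathway genes, CRYM was far above in the same libraries as DIO3, caged hypothalamus library 3 (295.2 FPKM) and floor-water pituitary library 2 (112.6 FPKM). TSHR stood apart in floor-water pituitary library 2 (0.5529 FPKM). RXRG stood apart in caged pituitary library 2 (0.09672 FPKM) because the other caged pituitary libraries were listed at 0.0001 FPKM. It reached 0.2338 FPKM in floor-water pituitary library 2. GATA2 was low in caged pituitary library 3 (4.446 FPKM) and RELN in caged pituitary library 4 (7.292 FPKM). CGA (63.54 FPKM) and TRHDE (2.273 FPKM) were high in floor-water hypothalamus library 1, which also held the highest floor-water level of TRH.

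Of the marker lists, given as mean log2(FPKM + 1), caged pituitary library 2 was high for neurons (3.71), oligodendrocytes (5.192) and astrocytes and tanycytes (3.042), and its median neuron marker was at 6.997% of the hypothalamus mean. Caged hypothalamus library 4 was high for oligodendrocytes (9.902) among the caged libraries, while floor-water hypothalamus library 4 was higher (10.116).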

How the results depend on the processing

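Counts of called genes for housing were 0 in edgeR and differed by setting. In the hypothalamus DESeq2 called 243 genes, 1 fit of all 16 libraries 1, leaving out caged libraries 2 and 4 gave 6, and leaving out single libraries 0 to 1. In the pituitary these were 51 with DESeq2, 3 with all libraries and 0 to 2 with single libraries out. For the difference between housing effects DESeq2 called 142 and leaving out single libraries gave 0 to 4. The cause was not tested. Tissue counts of both directions together stayed within 1.5 times in every setting, although library totals only gave 2709 caged genes higher in place of 4323, and were 8139 to 8820 in floor-water and 7329 to 8401 in caged ducks with single libraries out.

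Signs turned for small housing fold changes, and for the larger ones of SLCO1C1 (-1.22) and CRYM (-1.30) in the pituitary. Both of these turned without floor-water pituitary library 2. TEF in the hypothalamus was 0.10 without caged libraries 2 and 4. In the pituitary, without caged library 2 and floor-water libraries 2 and 4, THRB was 0.38 and TTR 2.69; TTR was 0.29 by limma with a pseudocount of 1, filtered or not, and 0.019 with 0.1. The DIO2 difference between housing effects was -0.0025 with library totals only, -0.12 by limma with a pseudocount of 1, filtered or not, and -0.14 with 0.1. With single libraries out, TSHB in the hypothalamus ran between -0.020 and 0.245, and the DIO2 difference between -0.3 and 0.45. In the pituitary TRHR ran between -0.296 and 0.075, SLCO1C1 between -1.57 and 0.056, THRB between -0.18 and 0.22, TTR between -0.79 and 2.81, and CRYM between -1.83 and 0.25. Differences in mean log2 marker level ran between -0.313 and 0.078 (oligodendrocyte) and -0.008 and 0.076 (endothelium) in the hypothalamus, and between -0.206 and 0.053 (endothelium) in the pituitary.

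With the title number as a block, the counts were 0 and 0 for housing, 8429 and 8200 for tissues and 0 for the difference between housing effects. Beyond caged tissues, the correlations of same-numbered libraries ran from -0.083 to 0.296 and did not pass the rule. Under the block THRB in the pituitary was 0.020 and TTR 1.73, and TTR between floor-water tissues was called (-4.51, adjusted p = 0.0324, edgeR; 0.00077 to 0.283 over all settings). The block changed no other call of the 8 genes than this and DIO2 between caged tissues. Levels under 1 FPKM, such as DIO3 and SLCO1C1 in floor-water hypothalamus, rest on 12 to 68 counts a library.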
